A study of Mus musculus with 21 samples.

Results

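D cyclins, the G1 kinases CDK4 and CDK6, their inhibitors, the pocket proteins and E2F1 were followed through 10 genes (Ccnd2, Ccnd3, Cdk4, Cdk6, Cdkn1b, Cdkn2c, Cdkn2d, Rb1, Rbl1 and E2f1) in RNA-seq of mouse Ba/F3 cells expressing JAK2-V617F. They are the G1 control genes of a fixed list that each of the 4 deposited expression tables holds. The rule uses no comparison of groups, but the tables hold only genes that passed the authors' expression filter. The list was also chosen with earlier results of these data known. These 10 genes are among 9973 that the 4 tables share and 14698 that at least 1 table holds. Ba/F3 is a pro-B cell line that needs interleukin-3, and here the cells carried JAK2-V617F, the mutant kinase of myeloproliferative neoplasms, from a retrovirus and had been transformed by withdrawal of the cytokine; whether the medium of the sequenced cells held it is not given in the sources used here. All 7 groups shared this background. Each group had 3 libraries. DMSO_treated, CHZ_treated and Ruxo_treated cells were exposed for 6 h to solvent, to 1 µM CHZ868 or to 1 µM ruxolitinib. Ruxo_wash and DMSO_wash cells were exposed for 1 h to 1 µM ruxolitinib or to solvent, washed and kept for 6 h without inhibitor, and CHZ_wash and DMSO_wash_exp3 cells went through the same steps with 1 µM CHZ868 or solvent in an experiment of their own. Ruxolitinib is a type I inhibitor, which binds the active form of the kinase, and CHZ868 is a type II inhibitor, which binds the inactive form.

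Cells pass from G1 into S phase once the pocket proteins, RB1 and its relatives, release the E2F transcription factors. D-type cyclins bind CDK4 and CDK6 and start the phosphorylation of the pocket proteins, and cyclin E and cyclin A with CDK2 carry it on. INK4 proteins such as those from Cdkn2c (p18) and Cdkn2d (p19) bind CDK4 and CDK6 and keep the cyclin away, whereas CIP/KIP proteins such as p27 from Cdkn1b bind the assembled cyclin and kinase complexes. In cytokine-dependent blood cells, D cyclin genes are known targets of STAT5, which JAK2 phosphorylates, and Cdkn1b is a known target of FOXO factors.

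The values are on the log2 CPM scale, where CPM is the number of reads of a gene scaled to a fixed library total. In 3 tables the low values were whole reads, which gave 7880000 to 10670000 reads per library on the listed genes; the values of the table of Ruxo_wash and DMSO_wash were not whole reads, and its depth is unknown. Where depth is known, Cdkn2d and E2f1 rested on the fewest reads of the members, with 61 to 218 and 137 to 234 reads per library, and Ccnd2 and Cdk6 on up to 4571 and 4253. Replicate 2 of Ruxo_treated and replicate 3 of DMSO_wash_exp3 stood apart from the others of their groups, with a median absolute difference over genes of 0.204 to 0.205 and 0.176 to 0.234 log2 units, against 0.0982 and 0.101 between the remaining pairs. Most results that rest on these libraries are given with and without them. The genes most like Ccnd2 and the comparison of the 2 DMSO washout groups are given only with them. By Pearson correlation, DMSO_wash replicate 2 was also lower, at 0.970 with each of replicates 1 and 3, against 0.991 between those. Its median absolute differences of 0.0783 and 0.0811 were close to the 0.0803 between those. Of the markers examined, 4 of 5 hematopoietic and interleukin-3 receptor genes were listed in every table (Kit was not), and of the B lineage genes Cd79a and Cd79b were listed whereas Pax5, Ebf1, Rag1, Rag2, Igll1, Vpreb1 and Dntt were not. Nothing states that the 3 libraries of a group came from separate cultures, so the p-values measure the spread between these libraries, which may be technical.

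The windows of 250 bases upstream of the transcription start were read from RefSeq (GRCm38.p6), where 8 of the 10 genes were found, with 10 windows. Ccnd2 and Rb1 had no window, so their promoters were not searched. The starts are those of RefSeq. By the gene positions of GENCODE M21, the windows of E2f1, Cdk6 and Cdkn2c and the second of Ccnd3 lie inside the gene. The window of Cdkn2d does so in part. For E2f1, Cdk6 and Cdkn2c the bases before the GENCODE start were not searched. Windows of Cdk4 and Rbl1 are shown. Among the windows searched, they hold the most matches to E-boxes (CACGTG, the site of MYC and its relatives) and the only match to the E2F motif (TTTCCCGC, TTTCGCGC, TTTGCCGC or TTTGGCGC), respectively. Capitals mark the matches, the sequences run 5′ to 3′ on the strand of the gene, and both strands were searched.
Cdk4, chr10:127063285-127063534, plus strand: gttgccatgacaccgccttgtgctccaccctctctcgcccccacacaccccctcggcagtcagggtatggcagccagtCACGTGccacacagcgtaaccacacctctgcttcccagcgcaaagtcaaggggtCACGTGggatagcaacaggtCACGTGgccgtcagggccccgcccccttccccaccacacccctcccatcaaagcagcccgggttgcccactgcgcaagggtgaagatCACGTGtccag
Rbl1, chr2:157204535-157204784, minus strand: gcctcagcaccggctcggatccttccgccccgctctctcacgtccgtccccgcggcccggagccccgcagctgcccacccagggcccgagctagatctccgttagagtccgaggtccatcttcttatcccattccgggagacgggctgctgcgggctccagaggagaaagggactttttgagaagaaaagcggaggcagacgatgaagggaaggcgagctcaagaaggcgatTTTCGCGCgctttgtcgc

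The 4 E-boxes of Cdk4 began 172, 118, 98 and 11 bases before the start. Cdk6 held 1 E-box, 220 bases before its RefSeq start. At least 1 E-box was present in 6.02% of 32851 promoter windows of the same length. The E2F match of Rbl1 began 18 bases before the start, and 1.86% of all windows held such a match. A FOXO motif (TGTTTAC) was found in a window of Ccnd3, 243 bases before the start, and in 3.17% of all windows. The STAT motif TTCNNNGAA, found in 7.02% of all windows, matched none of the 10 windows, which leave out Ccnd2 and Rb1. These are matches of letters and say nothing of binding.

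Levels in DMSO_treated cells were set on a scale per length, as log2 CPM per kilobase of the longest annotated transcript. Cdk4 had the highest level per length, at 6.75 ± 0.0861 (SD, n = 3, as for the values that follow). Ccnd2 followed at 5.67 ± 0.0208 and Cdkn1b, the gene of p27, at 5.62 ± 0.0168. Next in this scale came Ccnd3 at 5.46 ± 0.0625, Cdk6 at 5.17 ± 0.00868, Rbl1 at 5.07 ± 0.0433, Rb1 at 4.88 ± 0.0544 and Cdkn2c at 4.55 ± 0.186. The lowest levels per length were those of Cdkn2d at 3.50 ± 0.113 and E2f1 at 2.67 ± 0.0766. No neighbours in this order overlapped between libraries, although Ccnd2 and Cdkn1b lay close together. Ccnd1 was not listed at 6 h. Cdkn2a and Cdkn2b, the other INK4 genes, were listed in the table of Ruxo_wash alone, and Cdkn1c in none.

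**Figure D1:**
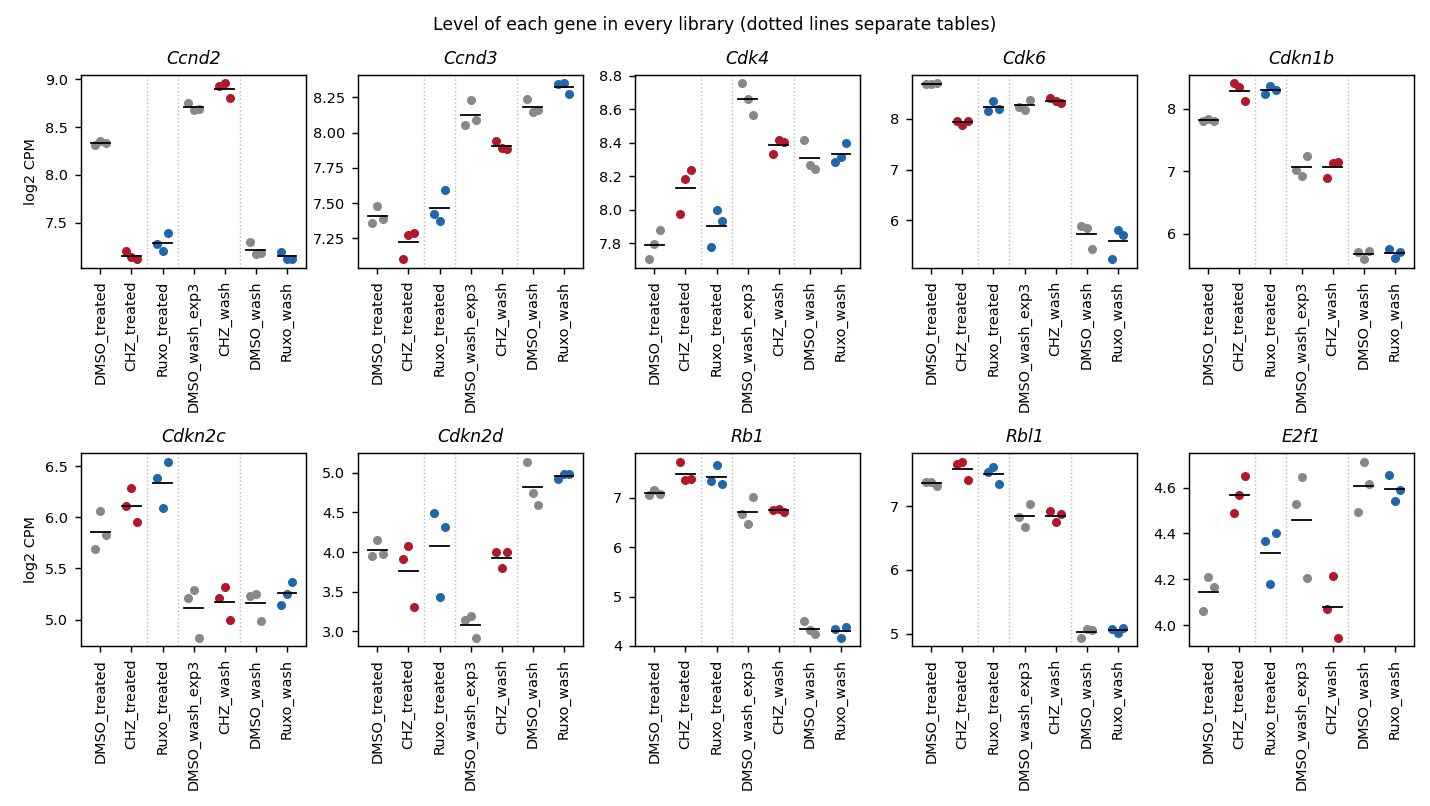
Level of each of the 10 genes (log2 CPM, vertical axis, with its own range in each panel) in every library of the 7 groups; points are libraries, black lines are group means and dotted lines separate the tables, whose levels are not on a shared scale. Ccnd2 lay between 7.12 and 7.20 in CHZ_treated and between 8.31 and 8.35 in DMSO_treated libraries.

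To ask how 6 h of type II inhibition changed G1 control, CHZ_treated was compared with DMSO_treated over the 11670 genes of their table by limma. Ccnd2, Ccnd3 and Cdk6 fell, whereas Cdk4, Cdkn1b, Rb1, Rbl1 and E2f1 rose, and the INK4 genes Cdkn2c and Cdkn2d did not pass the test. Thus 5 of 10 members were higher and 3 lower at an adjusted p under 0.05, against 26.8% of all genes higher and 26.4% lower. The median log2 fold change was 0.24 over the members and -0.01 over all genes. In bulk RNA, a shift in the share of cells in a phase of the cycle and a change of RNA per cell cannot be told apart. Ruxo_treated cells are in a table of their own, so values were first taken relative to the median of the library over the 11624 genes of both tables, and then compared with DMSO_treated without a test. After centring, 3 members lay above and 2 below with no overlap between the groups, against 24.6% and 20.1% of all genes. Without replicate 2 of Ruxo_treated these were 5 and 2 members, against 31.6% and 25.7% of all genes. Both inhibitor groups are set against the same DMSO_treated libraries.

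Ccnd2 (chr6:127125162-127152193, minus strand), the gene of cyclin D2, had 8.31, 8.35 and 8.33 log2 CPM in the DMSO_treated libraries and 7.20, 7.14 and 7.12 in the CHZ_treated libraries. Every CHZ_treated library was lower, and the fall was 2.27-fold (log2 fold change -1.18, SE 0.0573, limma adjusted p = 3.61e-10). Centred values of Ccnd2 were 3.06, 3.10 and 3.09 in DMSO_treated and 2.0, 1.95 and 2.10 in Ruxo_treated cells. The ruxolitinib libraries were again all lower, with a difference of -1.07, and -1.03 without replicate 2. Ccnd3 (chr17:47505051-47599691, plus strand), the gene of cyclin D3, had 7.36, 7.48 and 7.39 log2 CPM with DMSO and 7.10, 7.28 and 7.29 with CHZ868. It fell by 0.18 log2 units (SE 0.0691, limma adjusted p = 0.0357), which is small beside Ccnd2. The call of Ccnd3 was kept in 2 of the 6 fits that left out 1 library; without DMSO_treated replicate 1, 2 or 3 the adjusted p was 0.0543, 0.162 and 0.0792, and without CHZ_treated replicate 1 it was 0.117. It was 0.116 without the mean-variance trend of the fit and 0.0663 after centring on the median. With ruxolitinib, Ccnd3 overlapped DMSO_treated, with a centred difference of 0.03.

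Cdk6 (chr5:3341485-3531008, plus strand) had 8.69, 8.70 and 8.70 log2 CPM in DMSO_treated and 7.95, 7.88 and 7.96 in CHZ_treated cells. It fell 1.70-fold (a log2 fold change of -0.76, SE 0.0543, limma adjusted p = 2.17e-08). In Ruxo_treated cells its centred values of 2.88, 3.11 and 2.91 lay below the 3.44, 3.45 and 3.46 of DMSO_treated, a difference of -0.48, and of -0.55 without replicate 2, whose value was the highest of the group. Cdk4 (chr10:127063534-127067920, plus strand), the other kinase partner of the D cyclins, moved the opposite way. It had 7.70, 7.79 and 7.88 log2 CPM with DMSO and 7.97, 8.18 and 8.23 with CHZ868, and rose 1.27-fold (log2 fold change 0.34, SE 0.0729, limma adjusted p = 0.00114). With ruxolitinib, the centred values of Cdk4 overlapped those with DMSO, and the difference was 0.09. Of the 31-base words in the transcripts of Cdk4, 18.05% are shared with Tspan31, which overlaps it on the opposite strand, and nothing states that reads were counted by strand, so reads of Cdk4 and Tspan31 cannot be told apart there. Rb1 shares 13.16% of its words with 2 other genes, and 7.23% with 1 of them, Rcbtb2, also on the opposite strand. Each of the other members shares at most 3.65% with any 1 gene.

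Cdkn1b (chr6:134920401-134925513, plus strand) had 7.80, 7.83 and 7.80 log2 CPM in DMSO_treated and 8.41, 8.34 and 8.12 in CHZ_treated libraries. The gene of p27 rose 1.39-fold with CHZ868 (log2 fold change 0.47, SE 0.0706, limma adjusted p = 4.87e-05). Its centred values with ruxolitinib, 2.97, 3.12 and 3.00, were all above the 2.55, 2.58 and 2.56 with DMSO, a difference of 0.46, and of 0.42 without replicate 2. Cdkn2c (chr4:109660876-109667189, minus strand) had 5.69, 6.06 and 5.83 log2 CPM with DMSO and 6.11, 6.29 and 5.95 with CHZ868. These groups overlapped and the log2 fold change of 0.26 (SE 0.107) missed the threshold (limma adjusted p = 0.0562). Without DMSO_treated replicate 2, whose value was the highest with DMSO, the log2 fold change of Cdkn2c was 0.36 and its limma adjusted p = 0.0216, and without CHZ_treated replicate 3 it was 0.34 with a limma adjusted p = 0.0101. It also passed with robust empirical Bayes (limma adjusted p = 0.0472) and after centring (0.0352). In Ruxo_treated libraries Cdkn2c had centred values of 1.11, 0.84 and 1.25, above the 0.45, 0.81 and 0.58 of DMSO_treated, but the gap between the nearest libraries was small beside the difference of 0.46, which was 0.57 without replicate 2, the lowest. Cdkn2d (chr9:21288410-21291407, minus strand) had 3.95, 4.15 and 3.98 log2 CPM with DMSO and 3.91, 4.08 and 3.31 with CHZ868. CHZ_treated replicate 3 was the low one, and the log2 fold change of -0.26 (SE 0.196) did not pass (limma adjusted p = 0.279). Ruxo_treated replicate 2 was likewise low for Cdkn2d, at -1.81 centred against -0.78 and -0.98, so the difference from DMSO_treated was 0.03 with it and 0.34 without it.

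Among the pocket proteins, Rb1 (chr14:73183673-73325822, minus strand) had 7.06, 7.16 and 7.08 log2 CPM in DMSO_treated and 7.74, 7.36 and 7.38 in CHZ_treated cells. Rb1 rose 1.31-fold (log2 fold change 0.39, SE 0.0877, limma adjusted p = 0.00163). With ruxolitinib its centred values were 2.08, 2.41 and 2.0, above the 1.81, 1.91 and 1.84 with DMSO, and the difference of 0.31 was 0.18 without replicate 2, the highest. Rbl1 (chr2:157145893-157204534, minus strand), the gene of p107, had 7.38, 7.38 and 7.31 log2 CPM with DMSO and 7.66, 7.70 and 7.40 with CHZ868. It rose 1.17-fold (log2 fold change 0.23, SE 0.0757, limma adjusted p = 0.0193), but only 3 of the 6 fits that left out 1 library kept the call, and the adjusted p was 0.0864 without DMSO_treated replicate 3, 0.0551 without CHZ_treated replicate 1 and 0.0956 without CHZ_treated replicate 2. Without the mean-variance trend it was 0.0977, and after quantile normalization the log2 fold change was 0.11 with a limma adjusted p = 0.215. With ruxolitinib Rbl1 overlapped DMSO_treated, at a difference of 0.12. E2f1 (chr2:154559407-154569892, minus strand), the activating factor held by RB1, had 4.06, 4.21 and 4.17 log2 CPM with DMSO and 4.49, 4.57 and 4.65 with CHZ868. It rose 1.34-fold (log2 fold change 0.42, SE 0.133, limma adjusted p = 0.0148); without DMSO_treated replicate 1 the adjusted p was 0.0623. Ruxo_treated libraries overlapped DMSO_treated in E2f1, with a difference of 0.15. The overlap came from replicate 2 alone, at -1.07 centred, against -1.19, -1.04 and -1.08 with DMSO and -0.91 and -0.89 in the other Ruxo_treated libraries. Without Ruxo_treated replicate 2 the differences of Ccnd3, Cdk4, Rbl1 and E2f1 were 0.07, 0.03, 0.05 and 0.20. E2f1 and Cdkn2d then lay above DMSO_treated without overlap, as did 31.6% of all genes, whereas Ccnd3, Cdk4 and Rbl1 still overlapped.

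**Figure D2:**
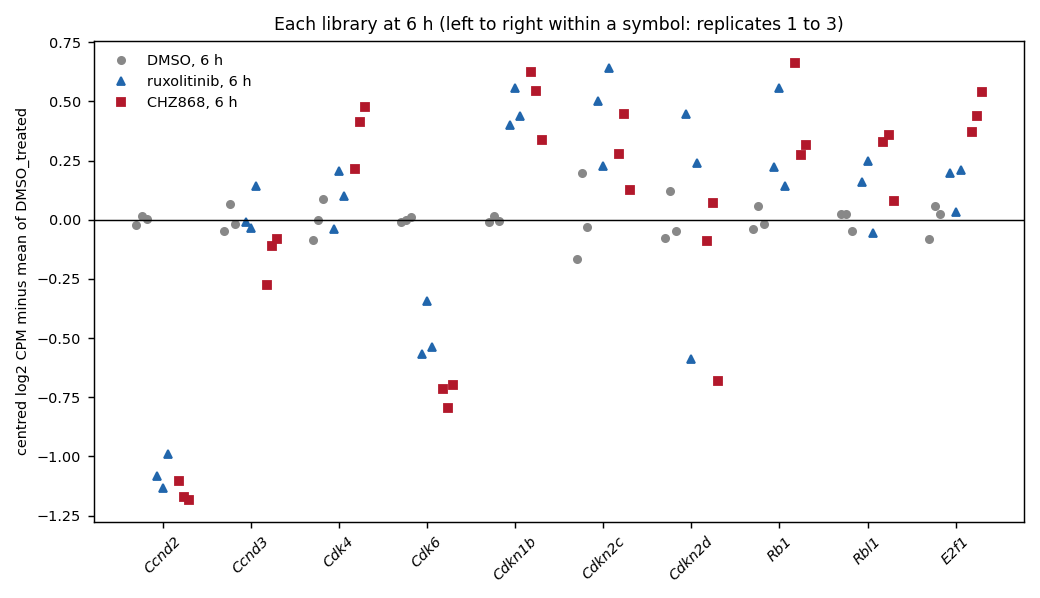
Centred log2 CPM of each gene minus its mean in DMSO_treated (vertical axis) for the 9 libraries at 6 h; circles are DMSO, triangles ruxolitinib and squares CHZ868. Ccnd2 and Cdk6 lay below DMSO and Cdkn1b above it in every inhibitor library, whereas the triangle of Ruxo_treated replicate 2 and the square of CHZ_treated replicate 3 lay far below the others for Cdkn2d.

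Set directly against each other at 6 h after centring, again without a test, the inhibitor groups did not overlap in 4 of 10 members, with 2 higher and 2 lower in Ruxo_treated, against 18.6% and 16.7% of all genes. Ccnd3 was 0.19 and Cdk6 0.25 log2 units higher with ruxolitinib, and Cdk4 was 0.28 and E2f1 0.30 log2 units lower (differences of -0.28 and -0.30). Centred values of Cdk6 were 2.88, 3.11 and 2.91 with ruxolitinib and 2.74, 2.65 and 2.75 with CHZ868, so the lowest ruxolitinib library was close to the highest CHZ868 library. For E2f1 they were -0.91, -1.07 and -0.89 against -0.73, -0.66 and -0.56. Ccnd2 and Cdkn1b differed by 0.09 and -0.04 and overlapped. Without Ruxo_treated replicate 2, 8 members did not overlap, 5 higher and 3 lower, where 28.7% of all genes were higher and 28.7% lower with no overlap. The differences of Ccnd3, Cdk6, Cdk4 and E2f1 were then 0.22, 0.18, -0.34 and -0.25. Those that no longer overlapped were Ccnd2, Cdkn2c and Cdkn2d, higher with ruxolitinib by 0.12, 0.29 and 0.58, and Rb1, with a difference of -0.23.

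For the washout of CHZ868, which asks what is left 6 h after a 1 h exposure, CHZ_wash was compared with DMSO_wash_exp3 over 11355 genes. Cdkn2d alone passed the test, so 1 of 10 members was higher and 0 lower, against 1.96% and 2.07% of all genes. The median log2 fold change was 0.02 over the members and 0.01 over all genes. Cdkn2d had 3.15, 3.19 and 2.92 log2 CPM in DMSO_wash_exp3 and 4.0, 3.80 and 4.0 in CHZ_wash libraries, all higher, and rose 1.79-fold (log2 fold change 0.84, SE 0.163, limma adjusted p = 0.0323). Leaving out CHZ_wash replicate 1, 2 or 3 or DMSO_wash_exp3 replicate 1 ended this call by limma, with an adjusted p of 0.123, 0.163, 0.157 and 0.140, while its log2 fold change stayed between 0.76 and 0.91. It is the member with the fewest reads.

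The D cyclins and the kinases did not pass the test after CHZ868 washout. Ccnd2 had 8.75, 8.68 and 8.68 log2 CPM in DMSO_wash_exp3 and 8.93, 8.96 and 8.81 in CHZ_wash libraries, which were all higher (log2 fold change 0.19, 95% interval 0.01 to 0.37, limma adjusted p = 0.181). Ccnd3 had 8.05, 8.23 and 8.09 log2 CPM against 7.94, 7.89 and 7.88, and Cdk4 had 8.76, 8.66 and 8.57 against 8.33, 8.42 and 8.41. Both were lower in every CHZ_wash library, with log2 fold changes of -0.22 (limma adjusted p = 0.134) and -0.28 (limma adjusted p = 0.0803). Cdk6 differed by 0.09 (95% interval -0.09 to 0.28). Cdkn1b, Cdkn2c, Rb1 and Rbl1 differed by -0.01, 0.07, 0.03 and 0.01 with overlapping groups, and the 95% intervals reached from -0.26 to 0.39. E2f1 had 4.53, 4.64 and 4.21 log2 CPM in DMSO_wash_exp3 and 4.07, 4.22 and 3.95 in CHZ_wash cells, a log2 fold change of -0.38 (limma adjusted p = 0.162). The third DMSO_wash_exp3 library, which stood apart, was the low one. Without it more of all genes passed, 6.68% higher and 5.87% lower, and so did 4 members: Cdkn2d, and Cdk4, Ccnd3 and E2f1, with log2 fold changes of -0.32, -0.24 and -0.51 and limma adjusted p-values of 0.00663, 0.0406 and 0.0312.

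After washout of ruxolitinib no member passed the test against DMSO_wash over 13085 genes. This was 0 of 10 in either direction by limma, against 0% of all genes higher and 0.0229% lower, and 920 genes had an unadjusted p under 0.05. Ccnd3 had 8.24, 8.15 and 8.16 log2 CPM in DMSO_wash and 8.35, 8.35 and 8.27 in Ruxo_wash libraries. Although the Ruxo_wash libraries were all higher, the log2 fold change was 0.14 (95% interval 0.05 to 0.23, limma adjusted p = 0.515). Ccnd2 had 7.29, 7.17 and 7.18 log2 CPM against 7.19, 7.12 and 7.12, and its log2 fold change of -0.07 had a 95% interval of -0.18 to 0.05. Ccnd2 overlapped between the groups, as did the other 8 members, whose log2 fold changes ran from -0.14 (Cdk6) to 0.14 (Cdkn2d). The interval was widest for Cdk6, from -0.60 to 0.31, with 5.23, 5.82 and 5.70 log2 CPM in Ruxo_wash and 5.90, 5.84 and 5.44 in DMSO_wash, so both groups were spread. Cdkn1b differed by 0.02 (95% interval -0.13 to 0.17) and Cdk4 by 0.02 (95% interval -0.11 to 0.16).

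**Figure D3:**
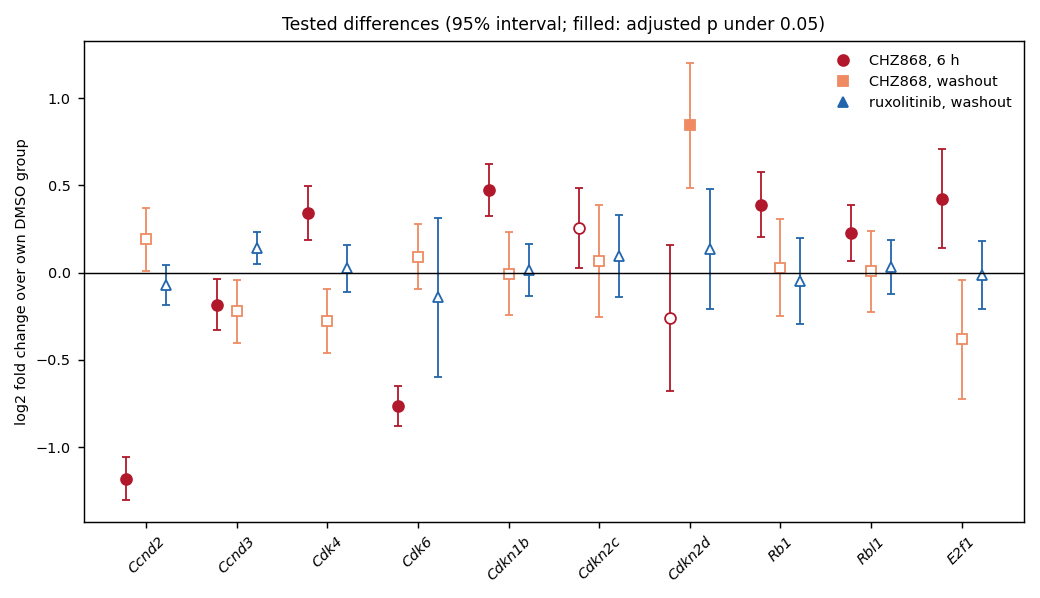
Log2 fold change of each gene over its own DMSO group (vertical axis) with its 95% interval from limma, for CHZ868 at 6 h, CHZ868 washout and ruxolitinib washout; filled symbols passed an adjusted p of 0.05. At 6 h 8 members passed, where 26.8% of all genes were higher and 26.4% lower. After CHZ868 washout 1 passed (Cdkn2d), against 1.96% and 2.07% of all genes, and after ruxolitinib washout 0, against 0% and 0.0229%.

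The 2 washout effects were tested against each other over 10078 genes of both tables, each effect taken inside its own table. No member passed (0 of 10 higher with ruxolitinib and 0 lower, by limma, against 0.972% and 0.923% of all genes), and 1903 of all genes had an unadjusted p under 0.05. Ccnd3 came nearest, with an effect 0.36 log2 units higher after ruxolitinib (SE 0.0864, limma adjusted p = 0.0516), from 0.14 after ruxolitinib and -0.22 after CHZ868. For Cdkn2d the difference was -0.71 (SE 0.199, limma adjusted p = 0.0791), for Cdk4 0.30 (SE 0.0965, limma adjusted p = 0.113) and for Ccnd2 -0.26 (SE 0.0866, limma adjusted p = 0.128). Without DMSO_wash_exp3 replicate 3, where 2.6% of all genes were higher and 2.66% lower, Ccnd3 and Cdk4 passed, with limma adjusted p-values of 0.0223 and 0.0361, and without DMSO_wash_exp3 replicate 2 Ccnd3 passed with a limma adjusted p = 0.0363. Since each inhibitor had an experiment of its own, the inhibitor cannot be told apart from the experiment here.

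The effect of CHZ868 at 6 h was then tested against its effect after washout over 11175 genes. By limma 3 of 10 members differed upward and 3 downward, against 23.2% and 23.8% of all genes. Ccnd2 and Cdk6, which fell at 6 h, had effects lower by -1.37 (SE 0.0936, limma adjusted p = 1.46e-08) and -0.86 (SE 0.0973, limma adjusted p = 3.51e-06) at 6 h than after washout. Cdkn2d, which rose after washout, had an effect lower by -1.10 at 6 h (SE 0.264, limma adjusted p = 0.00258). The effects on Cdk4, Cdkn1b and E2f1 were higher at 6 h by 0.62, 0.48 and 0.81 (SE 0.114, 0.137 and 0.197, limma adjusted p = 0.000358, 0.00831 and 0.00304). All 6 passed in each of the 12 fits that left out 1 library. Ccnd3, Cdkn2c, Rb1 and Rbl1 did not pass, at 0.04, 0.19, 0.36 and 0.22. The 6 h and washout libraries were separate experiments, so the exposure scheme and the experiment cannot be told apart.

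Beyond the members, a list of further genes of the G1/S pathway was followed. With CHZ868 at 6 h, 27 of 54 listed genes rose, 5 fell and 22 did not pass, where 26.8% of all genes rose and 26.4% fell, with a median log2 fold change of 0.21 against -0.01 over all genes. E2F target genes of S phase entry accounted for 13 of the rises, among 20 measured, with 2 falls. The largest rises were those of Ccna2 (cyclin A2) at 1.04, Rrm1 (the large subunit of ribonucleotide reductase) at 1.02, E2f8 (a repressive E2F) at 1.00, Rbl2 (p130, the pocket protein of resting cells) at 0.98 and Mnat1 (a subunit of the CDK-activating kinase) at 0.86. Cdkn1a, the gene of the CIP/KIP protein p21, rose by 0.36, so all 3 pocket protein genes and both listed CIP/KIP genes were higher. Ung (uracil DNA glycosylase) fell by 0.99, Fbxw7 (a receptor of cyclin E for degradation) by 0.45, Tk1 (thymidine kinase) by 0.43, Cdc25a (the phosphatase that activates CDK2) by 0.43 and Cdk7 by 0.39. The list named for E2F targets thus held genes in both directions. With ruxolitinib at 6 h, after centring and without a test, 23 of 54 lay above and 7 below DMSO_treated without overlap, where 24.6% and 20.1% of all genes did, the median difference being 0.14 against 0.04 over all genes. Its highest values were those of Rbl2 at 0.76, E2f8 at 0.73, Ccna2 at 0.58, Fzr1 (CDH1, which holds the anaphase-promoting complex active in G1) at 0.56 and Rrm1 at 0.53, and its lowest that of Ung at -0.58. Without replicate 2 the counts were 28 above and 9 below, against 31.6% and 25.7% of all genes, and the values of Rbl2, E2f8, Ccna2, Fzr1, Rrm1 and Ung were 0.59, 0.51, 0.39, 0.56, 0.43 and -0.59.

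**Figure D4:**
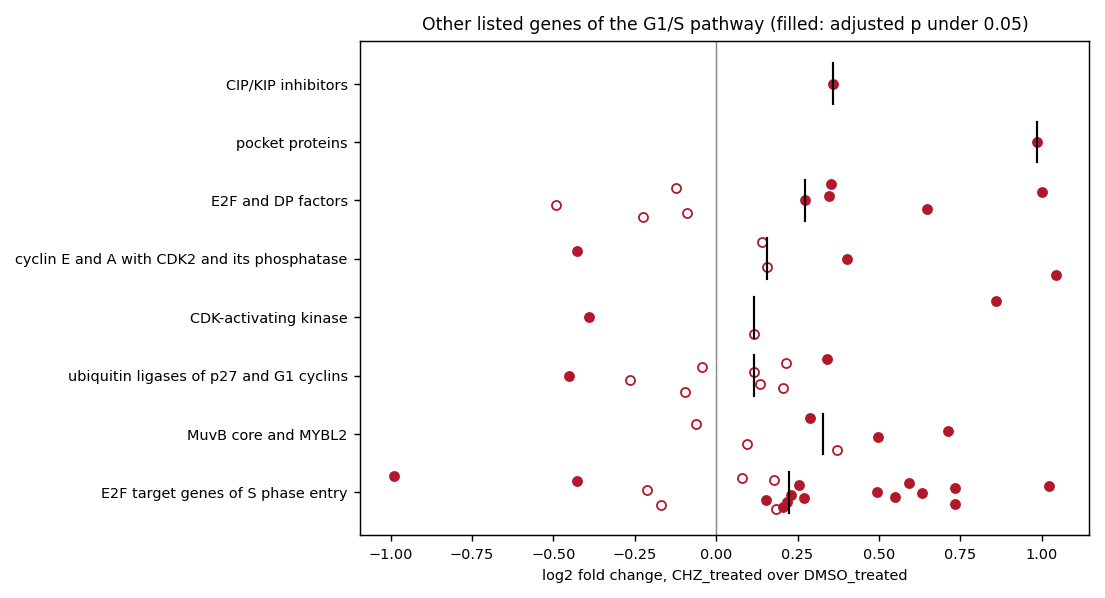
Log2 fold change of CHZ_treated over DMSO_treated (horizontal axis) for the 54 further listed genes, by list; filled points passed a limma adjusted p of 0.05 and black lines are list medians. In all, 27 points passed to the right of 0 and 5 to the left, where 26.8% of all genes rose and 26.4% fell.

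After CHZ868 washout, where 1.96% of all genes rose and 2.07% fell, 1 of 55 further genes rose, Skp1 (part of the ligase that marks p27 for degradation) by 0.44, and 3 fell, E2f4 (the E2F that joins p130) by 0.64, Cdt1 (which loads the replicative helicase) by 0.42 and Mybl2 (a partner of the MuvB complex) by 0.36. This count of 4 calls turned to 0 without CHZ_wash replicate 1, 2 or 3 or DMSO_wash_exp3 replicate 1, and to 9 and 14 without DMSO_wash_exp3 replicate 2 and 3. Without replicate 3 the share of all genes was 6.68% higher and 5.87% lower. The share in the other fits was not determined, so those counts have no background. After ruxolitinib washout, 0 of 57 passed by limma, where 0% of all genes were higher and 0.0229% lower. Between the washout effects Skp1 was not tested, since the ruxolitinib washout groups carry it under the symbol Skp1a. Where 0.972% of all genes were higher and 0.923% lower between these effects, E2f4 alone of 54 differed, by 0.67 (limma adjusted p = 0.0441). The count of further genes that differed was 7 without DMSO_wash_exp3 replicate 3, where 2.6% of all genes were higher and 2.66% lower. It was 5 without replicate 2 and 0 without any other library, fits for which the share of all genes was not determined. Between the effects of CHZ868 at 6 h and after washout, where 23.2% of all genes differed upward and 23.8% downward, 23 of 54 differed upward, led by E2f8 at 1.58 and Rbl2 at 1.36, and 6 downward, led by Ung at -0.91 and E2f5 at -0.86. Without DMSO_wash_exp3 replicate 3 these counts were 26 and 6, against 23.1% and 23.3% of all genes, and the values of E2f8, Rbl2, Ung and E2f5 were 1.39, 1.17, -0.79 and -0.83.

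Ccnd2 was the only member that changed by at least 1 log2 unit at 6 h. Across the 9 libraries at 6 h, relative to the median of the library, the genes most like it among 10014 with a mean log2 CPM of at least 3 were Irf1 (Pearson r = 0.9964), Igtp (0.9954) and Parp14 (0.9948). These 9 points fall into 3 groups of 3 libraries, so the values describe the shared pattern and carry no p.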

How the data were processed

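RNA of 21 libraries of Ba/F3 cells was measured by RNA-seq. The authors removed weakly expressed genes, applied TMM normalization and deposited log2 CPM, to which a small constant had been added, in 4 tables normalized separately. The paper's methods name kallisto, GRCm38, biomaRt and edgeR with voom and limma, whereas the submitters' processing notes name STAR 2.7.3a, edgeR 4.0.16 and GRCm39; which of them made each table is not given in the sources used here. Gene positions and transcript lengths came from GENCODE M21 (GRCm38), and promoter windows from RefSeq.

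Here, groups were taken from the labels, and every gene of a table was fitted by limma-trend (limma 3.58.1, R 4.3.3), on the groups compared only, adjusted by Benjamini-Hochberg over every gene fitted, at a threshold of 0.05. Effects of different tables were compared as differences of within-table effects. Ruxo_treated libraries were centred on the median over shared genes, without a test. Depth was recovered from values that are whole multiples of 1 read, within 0.1 reads, once the constant was removed, and covers counting error only. The fits were tested on simulated data.

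All 10 members are named. Of 11 lists of G1/S genes, the up to 5 largest rises and falls past the threshold are named, and genes of lists of up to 5. For members with a change of at least 1 log2 unit at 6 h, the 3 most correlated genes are given. Members and lists were chosen with earlier results of these data known. Alternatives were log2(CPM + 1) or log2(CPM + 5), minimum mean log2 CPM values of 1 or 3, quantile normalization or centring, limma with robust empirical Bayes or without the trend, the replicate number as a block, and each library left out in turn.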

Additional observations from a re-analysis of the deposited data

Results flagged for a closer look

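For 6 members the effect of CHZ868 at 6 h differed from its effect after washout, by limma's test of the difference between the effects (log2 units, 6 h minus washout). Of the 10 members 3 differed upward and 3 downward, against 23.2% and 23.8% of all genes, so such differences were common and not particular to the members. The differences were -1.37 for Ccnd2, -0.86 for Cdk6, -1.10 for Cdkn2d, 0.62 for Cdk4, 0.48 for Cdkn1b and 0.81 for E2f1. For Ccnd2, Cdk6 and Cdkn1b the effect after washout was between -0.01 and 0.19, so the difference came with an effect at 6 h, of -1.18, -0.76 and 0.47. For Cdkn2d it came with a rise of 0.84 after washout, where the effect at 6 h was -0.26. Cdk4 and E2f1 had effects of opposite sign, 0.34 and 0.42 at 6 h and -0.28 and -0.38 after washout, of which the washout effects did not pass the test on their own. Both time schemes were separate experiments, with which the exposure cannot be told apart.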

How the results depend on the processing

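Under the other settings and with 1 library left out, the number of members called for CHZ868 at 6 h (8) and for its 6 h effect against its washout effect (6), and the number without overlap for ruxolitinib at 6 h (5), stayed within 1.5 times of these values, although the calls of Ccnd3 and Rbl1 ended and that of Cdkn2c appeared under some of them. After CHZ868 washout 1 call became 0 without the mean-variance trend and 0 to 4 when 1 library was left out. Between the washout effects, 0 calls became 1, Ccnd3, with robust empirical Bayes, with a mean log2 CPM of at least 3 or with log2(CPM + 5), and 0 to 2 when 1 library was left out. Between ruxolitinib and CHZ868 at 6 h, 4 members without overlap became 4 to 8 when 1 library was left out. Among these reruns, the share of all genes was determined only without Ruxo_treated replicate 2 or DMSO_wash_exp3 replicate 3. In the tests, signs turned only for members that had not passed the test. After CHZ868 washout Rbl1 was -0.0043 after centring and Cdkn1b 0.0229 after quantile normalization. Under quantile normalization, Cdkn1b and Rbl1 were -0.0124 and -0.0024 between the washout effects, and Ccnd3 was -0.11 between the effects of CHZ868 at 6 h and after washout. With 1 library left out, the log2 fold changes after CHZ868 washout ranged from -0.0761 to 0.0869 for Cdkn1b, -0.0762 to 0.158 for Cdkn2c, -0.0954 to 0.179 for Rb1 and -0.0789 to 0.103 for Rbl1. After ruxolitinib washout they ranged from -0.0093 to 0.0784 for Cdk4, -0.286 to 0.0337 for Cdk6, -0.0258 to 0.0525 for Cdkn1b, -0.105 to 0.0248 for Rb1, -0.0087 to 0.0600 for Rbl1 and -0.0696 to 0.0399 for E2f1. Between the washout effects the ranges were -0.0712 to 0.0918 for Cdkn1b, -0.0603 to 0.174 for Cdkn2c, -0.228 to 0.0470 for Rb1 and -0.0696 to 0.113 for Rbl1, and between the CHZ868 effects -0.0178 to 0.0965 for Ccnd3. The cause of these changes was not tested. Same-numbered libraries shared only a number, with correlations of their deviations from -0.0537 to 0.0514, and the numbers gave no pairing; with the replicate number as a replicate block, 9 members were called for CHZ868 at 6 h, Cdkn2c being the ninth (limma adjusted p = 0.0245), and 1, 0, 0 and 6 in the other tests. Where depth is known, Cdkn2d and E2f1 rested on the fewest reads. In Ruxo_wash and DMSO_wash, whose depth is unknown, Rb1 had the lowest mean CPM of the members, 19.6 and 20.3.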

Other observations

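DMSO_wash and DMSO_wash_exp3 carry the same labelled treatment, a 1 h exposure to solvent and 6 h without it, but stand in separate tables. After median centring over the 10078 shared genes, DMSO_wash differed from DMSO_wash_exp3 by 2.35 log2 units in Cdkn2d, whose longest transcript of 1423 bases is the shortest of the members, and by -1.93 in Cdk6, whose transcript of 11525 bases is the longest. The other differences were -1.77 for Rb1, -1.21 for Rbl1, -0.88 for Ccnd2, -0.78 for Cdkn1b, 0.76 for E2f1, 0.67 for Ccnd3, 0.66 for Cdkn2c and 0.25 for Cdk4. Over 10010 genes with a known length, the median difference was 1.12 among the 2503 genes with the shortest transcripts, 0.21 and -0.33 in the next length classes of 2502 genes each, and -1.04 among the 2503 with the longest (Pearson r = -0.579 with log2 length, across genes, which are not independent replicates). Each washout effect of the report is taken inside its own table.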
